A study of Mus musculus with 2 samples.

Results

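The genes described here are the receptors for glucocorticoid hormones, Nr3c1 (the glucocorticoid receptor, GR) and Nr3c2 (the mineralocorticoid receptor, MR), together with 8 genes known to be induced by them: Zbtb16, Fkbp5, Sgk1, Tsc22d3, Errfi1, Fam107a, Hif3a and Ddit4. These 10 members, of 32285 genes in the matrices, were taken by symbol, and they were chosen from measured values of these same libraries. Their differences between the libraries are therefore given as a description. Levels were measured by single-nucleus RNA-sequencing of the POA, the preoptic area of the hypothalamus that controls body temperature. The US+ library held nuclei of 4 wild-type (WT) mice of 6 to 9 weeks, taken about 1 h after ultrasound aimed at the POA, and the US- library held nuclei of 4 WT mice of the same age after sham treatment. In each group the tissue of the 4 mice was pooled, and about 25000 nuclei carrying NeuN, an antigen of neuronal nuclei, were sorted into 1 library, so that neither group has a replicate.

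Corticosterone, the main glucocorticoid of mice, enters cells and binds GR and MR, which wait in the cytoplasm in a complex with heat shock proteins. The loaded receptors move into the nucleus and bind DNA at short palindromic elements, from which they raise or lower the transcription of target genes within minutes to hours. MR binds corticosterone far more tightly than GR and is largely occupied at resting hormone levels, whereas GR fills during stress and at the daily hormone peak. Hormone levels were not measured in these libraries.

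Both receptors recognize the same palindrome, AGAACA and TGTTCT with 3 bases of any kind (NNN) between them, whose arms are the same letters read on opposite strands. The promoter windows of the members, from 250 bases before to 50 bases after each annotated start in RefSeq (build GRCm38.p6), were searched on both strands for the whole palindrome, for its inner core, ACA and TGT around the same NNN, and for the single arm TGTTCT. Windows were searched for 8 of the 10 members, 18 windows in all, and none was searched for Zbtb16 and Nr3c1. A whole palindrome was found in 1 of these windows, which belongs to Sgk1, and in 3 of 32851 windows of all genes (0.00913%). The other windows that hold it belong to Acnat2 and Gm35041. The Sgk1 window lies at chr10:21993640-21993939 on the plus strand, and the palindrome, in capitals, starts 189 bases and ends 175 bases before the annotated start. It is printed because Sgk1, one of the 8 induced members, stood lower in US+ in every class of nuclei described below.
Sgk1: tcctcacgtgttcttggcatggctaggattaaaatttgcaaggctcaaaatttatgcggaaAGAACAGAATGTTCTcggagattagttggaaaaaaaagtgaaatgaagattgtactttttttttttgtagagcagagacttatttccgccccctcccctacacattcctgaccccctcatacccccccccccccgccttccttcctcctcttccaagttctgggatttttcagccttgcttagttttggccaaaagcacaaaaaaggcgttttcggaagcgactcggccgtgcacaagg

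The inner core alone was present in 4 of the 18 windows, from Sgk1 and Fam107a, against 6.85% of all windows, and it overlaps the whole palindrome in the Sgk1 window above. The single arm was present in 6 of the 18 windows, from Sgk1, Tsc22d3 and Fam107a, against 19% of all windows. The Fam107a stretch at chr14:8309847-8309935 on the minus strand is printed for contrast with Sgk1, since Fam107a had among the highest US+ over US- ratios. Its core, in capitals, runs on into a single arm that shares the letters TGT with it, and the same match was counted in 2 overlapping windows of the gene.
Fam107a: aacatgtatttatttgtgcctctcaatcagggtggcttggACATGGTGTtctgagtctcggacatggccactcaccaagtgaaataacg
A match is a stretch of letters and not a bound site. The windows of Fkbp5, Errfi1, Hif3a, Ddit4 and Nr3c2 held none of the 3 motifs, which says only that these letters are absent from those windows.

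Nuclei with 200 to 7500 genes and at most 5% of UMIs from mitochondrial genes were kept, 11899 from US+ and 11663 from US-. A UMI (unique molecular identifier) marks 1 captured RNA molecule, and levels are CPM, the UMIs of a gene scaled to all UMIs of the summed nuclei. The kept nuclei held 86741549 UMIs in US+, with a median of 6440 per nucleus, and 99537709 UMIs in US-, with a median of 7334. Nuclei with under 1000 UMIs made up 10.8% of US+ and 3.12% of US-. The libraries had 29 barcodes in common of 23800. Intervals are exact 95% intervals that cover counting error only, and no test between mice was possible. In gene coordinates of GENCODE M21 on GRCm38, no member shares its span with a gene of the same strand that reached 50 UMIs. Nr3c2 is overlapped on the opposite strand by Gm10649, with 3955 UMIs in US+ and 5817 in US-, and Fkbp5 by Gm22146, with 1113 and 604.

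The classes were gated by marker UMIs, each nucleus entering only 1 class. Striatal-type nuclei had at least 2 UMIs of Rarb and at least 1 of the dopamine receptor genes Drd1 and Drd2, and made up 4.98% of US+ nuclei (592) and 17.3% of US- nuclei (2022). Glutamatergic nuclei had at least 1 UMI of the vesicular transporter gene Slc17a6 (1820 in US+, 1336 in US-). Other GABAergic nuclei had at least 2 UMIs of the GABA-synthesizing enzyme genes Gad1 and Gad2 (4541 and 4970). Astrocyte-like nuclei had at least 2 UMIs of the water channel gene Aqp4 and the gap junction gene Gja1, and were few (82 and 62). Their 10 astrocyte markers summed to 5694 CPM in US+ against 5272 CPM in US-, but 5 neuronal markers also summed to 1787 and 2165 CPM there, so these nuclei carried neuronal RNA as well. The remaining 4864 US+ and 3273 US- nuclei met no gate.

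The increase in US+ was shared by all 4 classes for Zbtb16, Fkbp5, Errfi1, Fam107a and Hif3a, in the sense that every ratio was above 1, although the intervals of Hif3a in glutamatergic nuclei and of Errfi1 in astrocyte-like nuclei included 1. Sgk1 went the other way in all 4 classes. Tsc22d3 stood clearly above 1 in astrocyte-like nuclei, and its interval included 1 in each neuronal class. Nr3c1 was lower in US+ in striatal-type nuclei and higher in other GABAergic nuclei, and Nr3c2 was lower in both. Sgk1, and Ddit4 in neurons, did not have the direction that the name of induced genes would give. Since the members were chosen from these values, the direction of the others says nothing about that name.

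**Figure D1:**
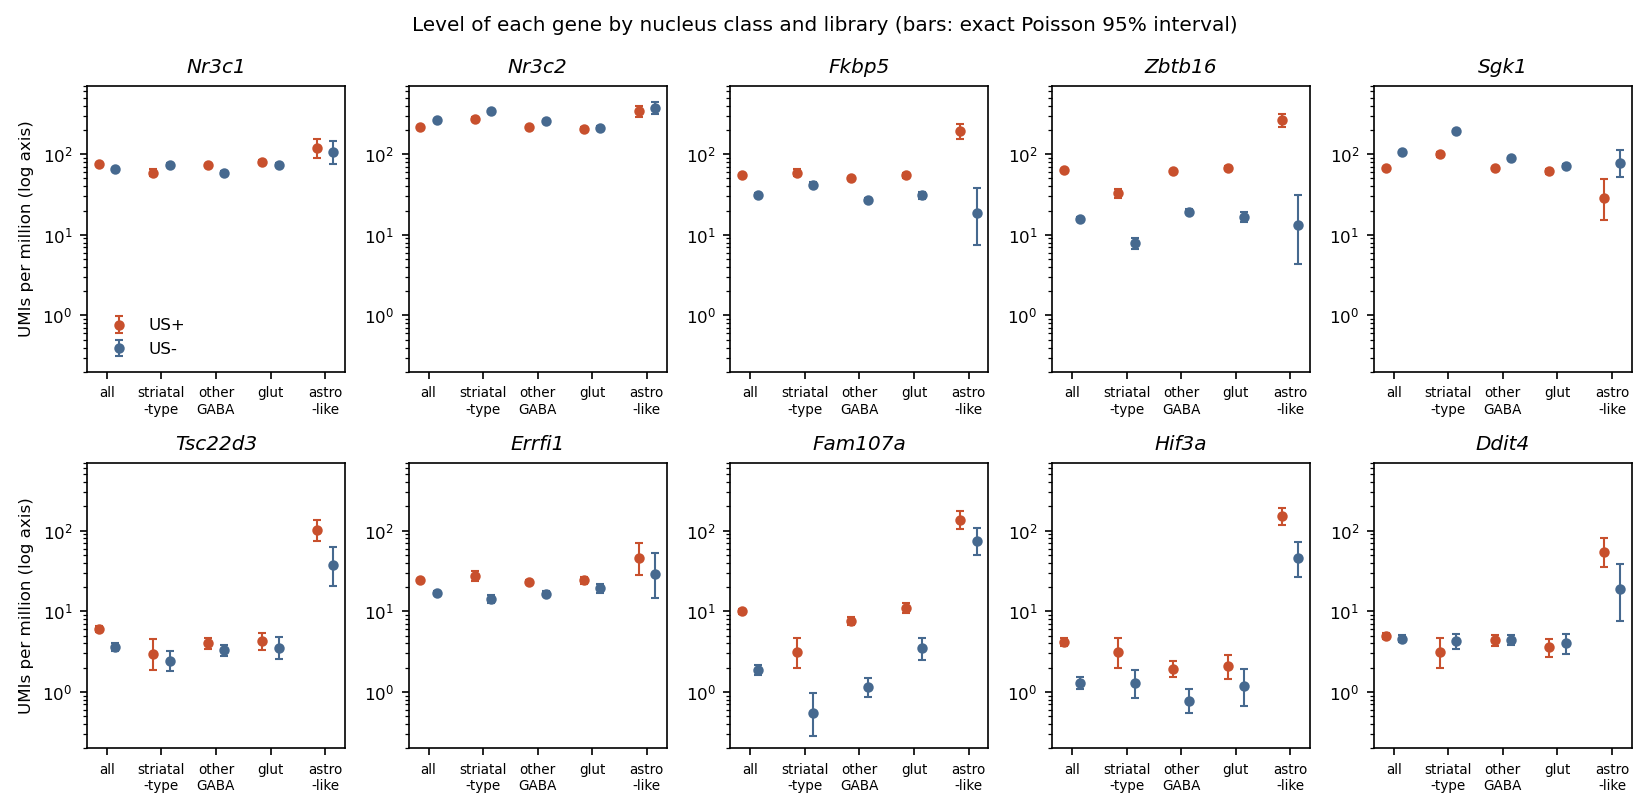
Level of each of the 10 genes in CPM (log axis) in all nuclei and in 4 classes, US+ left of US-, with exact Poisson 95% intervals and 1 library of 4 pooled mice per group. Zbtb16 stood at 61.0 CPM in US+ against 19.3 CPM in US- in other GABAergic nuclei, and Sgk1 at 99.3 CPM in US+ against 194 CPM in US- in striatal-type nuclei.

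Counted over members with at least 50 UMIs, 5 of 10 were at least 1.5-fold higher in US+ in all nuclei (7.99% of all 20194 such genes) and 1, Sgk1, was at least 1.5-fold lower (3.31% of genes). In striatal-type nuclei 3 of 9 were higher (6.38% of genes) and 1 lower (8.88%). In other GABAergic nuclei 4 of 10 were higher (5.21%) and none lower (2.81%), and in glutamatergic nuclei 4 of 10 were higher (3.34%) and none lower (1.86%). In astrocyte-like nuclei 5 of 7 were higher (7.93%) and none lower (7.55%). The median log2 ratio of the members was 0.61 in all nuclei, against 0.06 over all genes. It was 0.29, 0.39, 0.30 and 1.46 in the striatal-type, other GABAergic, glutamatergic and astrocyte-like nuclei, and over all genes it was -0.07, 0.03, -0.01 and -0.01. Because the members were chosen from these values, nothing is read from the counts.

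Nr3c1, which encodes GR and lies on chromosome 18 (39410545 to 39519421, minus strand), was at 58.9 CPM in US+ against 73.0 CPM in US- in striatal-type nuclei, a ratio of 0.807 (0.724 to 0.898). In other GABAergic nuclei it was at 72.6 CPM in US+ against 58.7 CPM in US-, a ratio of 1.24 (1.17 to 1.30). In glutamatergic nuclei it was at 80.9 and 73.7 CPM, a ratio of 1.1 (1.01 to 1.19). GR RNA was thus lower in US+ in the striatal-type class and higher in the other neuronal classes taken whole, though not in most of the finer types described below, and the ratio of the ratios, other GABAergic over striatal-type, was 1.53 (1.36 to 1.72). Astrocyte-like nuclei had the highest Nr3c1 level of the 4 classes, 118 CPM in US+ against 107 CPM in US-, with intervals that overlapped between the libraries. In US+ the order was astrocyte-like, glutamatergic, other GABAergic and striatal-type, with no overlap of the counting intervals of neighbours. In US- the intervals of the first 3 classes, astrocyte-like, glutamatergic and striatal-type, overlapped in part, and other GABAergic nuclei lay below them.

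Nr3c2, which encodes MR and lies on chromosome 8 (76899442 to 77245012, plus strand), was at 273 CPM in US+ against 341 CPM in US- in striatal-type nuclei, a ratio of 0.799 (0.760 to 0.840). Other GABAergic nuclei had 216 CPM in US+ against 259 CPM in US-, a ratio of 0.836 (0.814 to 0.859). Glutamatergic nuclei had 207 and 214 CPM, a ratio of 0.969 (0.921 to 1.02), and astrocyte-like nuclei had 338 and 379 CPM, a ratio of 0.893 (0.707 to 1.13). MR RNA was therefore lower in US+ in striatal-type and other GABAergic nuclei, and not distinguishable between the libraries in the remaining classes at this depth.

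Fkbp5, on chromosome 17 (28399094 to 28517527, minus strand), encodes a co-chaperone that lowers the affinity of GR for hormone and is itself raised by GR, a short feedback loop. It was at 59.2 CPM in US+ against 41.9 CPM in US- in striatal-type nuclei, a ratio of 1.41 (1.26 to 1.58). Other GABAergic nuclei had 50.1 CPM in US+ against 27.0 CPM in US-, a ratio of 1.86 (1.73 to 1.99), and glutamatergic nuclei had 54.7 and 31.1 CPM, a ratio of 1.76 (1.56 to 1.98). The US+ levels of the neuronal classes lay close together, while the US- level was highest in striatal-type nuclei, which also had the smallest ratio. In astrocyte-like nuclei Fkbp5 was at 194 CPM in US+ (89 UMIs) against 18.7 CPM in US- (7 UMIs), a ratio of 10.4 (4.84 to 26.6), which was 6.00 with stricter gates. That ratio exceeded those of striatal-type, other GABAergic and glutamatergic nuclei by 7.37 times (3.39 to 16), 5.60 times (2.59 to 12.1) and 5.91 times (2.71 to 12.9).

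Zbtb16, on chromosome 9 (48654297 to 48836222, minus strand), encodes PLZF, a zinc finger transcription factor. It was at 32.8 CPM in US+ against 7.88 CPM in US- in striatal-type nuclei, a ratio of 4.16 (3.41 to 5.09). Other GABAergic nuclei had 61.0 CPM in US+ against 19.3 CPM in US-, a ratio of 3.15 (2.92 to 3.4). Glutamatergic nuclei had 67.5 CPM in US+ against 16.6 CPM in US-, a ratio of 4.07 (3.51 to 4.73). No neuronal class lacked the difference. The ratio was smaller in other GABAergic than in glutamatergic nuclei, by 0.775 times (0.657 to 0.914). In astrocyte-like nuclei Zbtb16 was at 264 CPM in US+ (121 UMIs) against 13.3 CPM in US- (5 UMIs), a ratio of 19.8 (8.25 to 62.1), which was 4.75 (1.90 to 11.9) to 6.28 (2.56 to 15.4) times the ratios of the neuronal classes. Among genes with at least 200 UMIs, Zbtb16 had the 2nd highest ratio of 11803 in glutamatergic nuclei, the 18th of 14544 in other GABAergic nuclei and the 21st of 10858 in striatal-type nuclei.

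Sgk1, on chromosome 10 (21882184 to 21999903, plus strand), encodes a serum- and glucocorticoid-regulated kinase that controls ion channels and transporters, and it is a classic target of both receptors. It was at 99.3 CPM in US+ against 194 CPM in US- in striatal-type nuclei, a ratio of 0.513 (0.474 to 0.555), the 106th lowest of 10858 genes. Other GABAergic nuclei had 67.0 CPM in US+ against 89.3 CPM in US-, a ratio of 0.750 (0.715 to 0.787). In these nuclei 5 of 10 markers of striatal projection neurons were at least 1.5-fold lower in US+, against 2.81% of all genes. Those 10 markers summed to 332 CPM in US+ against 535 CPM in US-. The part of striatal RNA in the Sgk1 and Nr3c2 ratios of this class was not tested. Glutamatergic nuclei had 61.0 and 71.1 CPM, a ratio of 0.857 (0.784 to 0.938), although the 3 gated glutamatergic types described below lay close to 1. Astrocyte-like nuclei had 28.4 CPM in US+ (13 UMIs) against 77.3 CPM in US- (29 UMIs), a ratio of 0.367 (0.175 to 0.728), which was 0.900 with stricter gates and 0.770 with every nucleus weighted equally. The difference was larger in striatal-type than in glutamatergic nuclei, with a glutamatergic over striatal-type ratio of ratios of 1.67 (1.49 to 1.88). In all nuclei the ratio of Sgk1 was 0.622, and it was 0.718 when the classes were given the same shares in both libraries, which no longer passes the 1.5-fold limit.

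**Figure D2:**
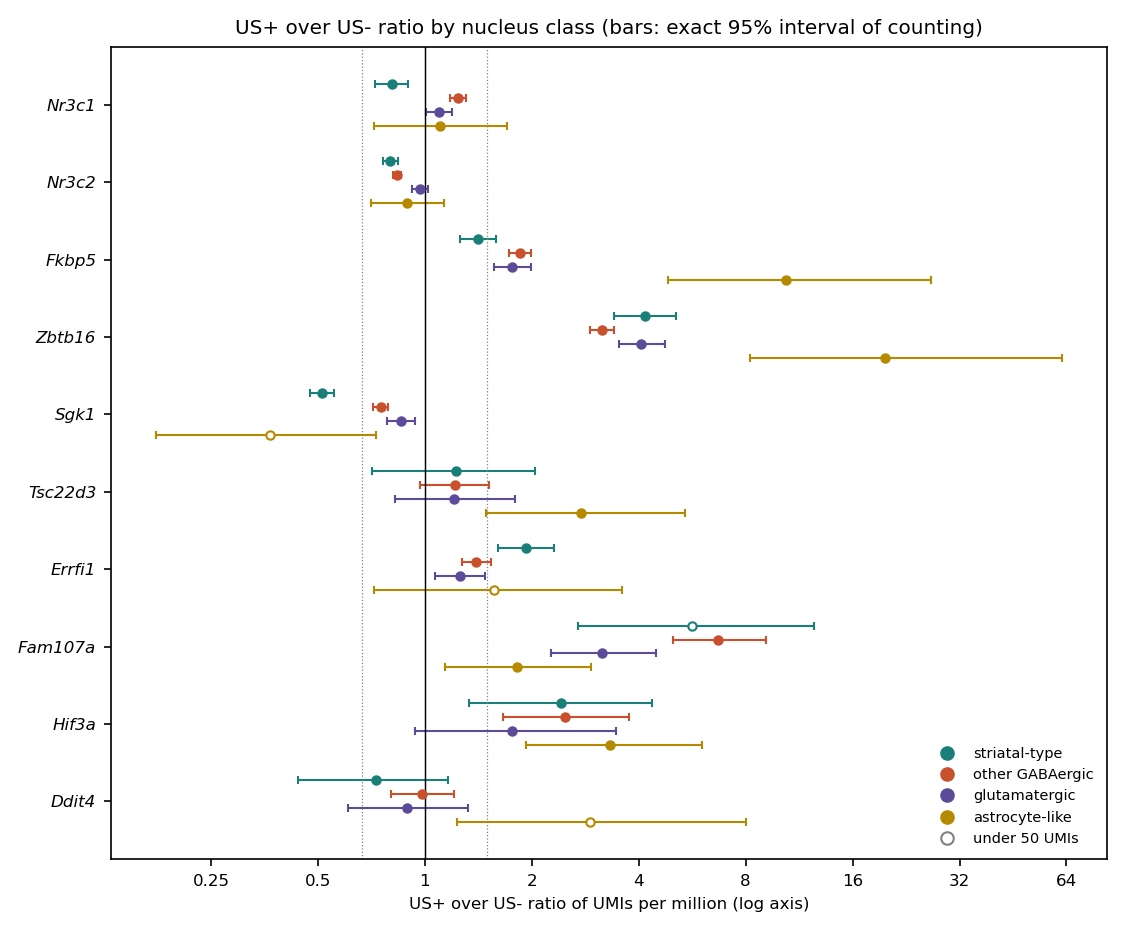
US+ over US- ratio of CPM (log axis) for each gene in 4 classes, with exact 95% intervals of counting. Open points rest on under 50 UMIs, dotted lines mark 1.5-fold, and Sgk1 lies left of 1 in all 4 classes while Zbtb16 lies between 3.15 and 19.8.

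Errfi1, on chromosome 4 (150853919 to 150868892, plus strand), encodes a feedback inhibitor of the EGF receptor that is also raised by growth signals. It was at 27.6 CPM in US+ against 14.3 CPM in US- in striatal-type nuclei, a ratio of 1.93 (1.61 to 2.31), at 23.1 and 16.6 CPM in other GABAergic nuclei, a ratio of 1.40 (1.27 to 1.54), and at 24.1 and 19.3 CPM in glutamatergic nuclei, a ratio of 1.25 (1.07 to 1.47). Its ratio was largest in the striatal-type nuclei, 1.38 times (1.13 to 1.69) that of other GABAergic nuclei, which is the reverse of the order for Fkbp5. Ddit4, on chromosome 10 (59949669 to 59951834, minus strand), encodes an inhibitor of the growth-promoting kinase complex mTORC1. It was at 3.11 CPM in US+ against 4.26 CPM in US- in striatal-type nuclei, at 4.38 and 4.45 CPM in other GABAergic nuclei, and at 3.58 and 4.01 CPM in glutamatergic nuclei. All 3 neuronal intervals of its ratio included 1, from 0.729 (0.441 to 1.16) to 0.984 (0.802 to 1.21). In astrocyte-like nuclei Ddit4 had 25 UMIs in US+ and 7 in US-, a ratio of 2.92 (1.23 to 8.00).

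Fam107a, on chromosome 14 (8296274 to 8318023, minus strand), encodes an actin-binding protein raised by stress, and Hif3a, on chromosome 7 (17031507 to 17062427, minus strand), an alpha subunit of the hypoxia-inducible factors. Fam107a was at 7.62 CPM in US+ against 1.14 CPM in US- in other GABAergic nuclei, a ratio of 6.69 (5.00 to 9.10), at 10.9 and 3.46 CPM in glutamatergic nuclei, a ratio of 3.15 (2.26 to 4.48), and at 135 and 74.7 CPM in astrocyte-like nuclei, a ratio of 1.81 (1.14 to 2.94). In striatal-type nuclei it had 23 UMIs in US+ and 12 in US-, a ratio of 5.65 (2.70 to 12.5). Its proportional difference was thus larger in striatal-type and other GABAergic nuclei, where it was rare, than in the astrocyte-like nuclei, where it was abundant. For glutamatergic over astrocyte-like nuclei the ratio of ratios was 1.74 (1.00 to 3.03), with a lower bound close to 1. Hif3a was at 151 CPM in US+ against 45.3 CPM in US- in astrocyte-like nuclei, a ratio of 3.32 (1.93 to 6.02), and at 1.94 and 0.781 CPM in other GABAergic nuclei, a ratio of 2.48 (1.66 to 3.77). In striatal-type nuclei its ratio was 2.42 (1.33 to 4.36) on 23 UMIs in US+ and 28 in US-, and in glutamatergic nuclei 1.76 (0.941 to 3.46).

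Tsc22d3, on chromosome X (140539528 to 140600659, minus strand), encodes GILZ, a leucine zipper protein that carries part of the anti-inflammatory action of glucocorticoids. It was at 103 CPM in US+ against 37.3 CPM in US- in astrocyte-like nuclei, a ratio of 2.75 (1.49 to 5.4). In neurons it was rare, at 2.97 CPM in US+ against 2.43 CPM in US- in striatal-type, 3.99 and 3.29 CPM in other GABAergic, and 4.27 and 3.54 CPM in glutamatergic nuclei. All 3 neuronal ratios lay between 1.21 and 1.22, with intervals that included 1. The ratio in all nuclei was 1.65, and the nuclei that met no gate had 10.4 CPM in US+ against 5.4 CPM in US-, a ratio of 1.92 (1.50 to 2.48). Over the 12 finer types described below, the Tsc22d3 ratio was above 1 in 7 and below 1 in 5. Its interval was above 1 in 2 of them, Esr1 GABAergic nuclei, 2.23 (1.24 to 4.25), and Sim1 glutamatergic nuclei, 3.26 (1.01 to 16.7). The part of each class in the ratio of all nuclei was not tested.

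Fam107a, Hif3a, Tsc22d3 and Ddit4 were far more abundant in astrocyte-like nuclei than in neurons, and RNA of glial cells was present in the neuronal classes. In other GABAergic nuclei, 7 of 9 astrocyte markers and 6 of 7 oligodendrocyte markers with at least 50 UMIs were at least 1.5-fold higher in US+. There 1 astrocyte marker was lower. The 10 astrocyte markers summed to 122 CPM in US+ against 124 CPM in US-, but the highest single marker alone stood at 48.3 and 79.3 CPM. The sums therefore do not show that astrocyte RNA was equal. In glutamatergic nuclei 1 of 5 and 5 of 6 markers were at least 1.5-fold higher, with astrocyte sums of 103 and 82.7 CPM. In striatal-type nuclei 1 of 5 and 4 of 5 were, with sums of 353 and 429 CPM, of which the highest single marker held 302 and 390 CPM. The 7 oligodendrocyte markers summed to 97.9 CPM in US+ against 60.6 CPM in US- in other GABAergic nuclei. No astrocyte marker of the list was at 0 in any class. The next values are per 100 UMIs of the astrocyte markers, with Aqp4 and Gja1 left out. Fam107a had 6.38 UMIs in US+ and 0.930 in US- in other GABAergic nuclei, and 2.62 and 1.59 in astrocyte-like nuclei. In striatal-type nuclei Fam107a had 0.889 and 0.129 UMIs per 100, below the astrocyte-like values in both libraries. The divisor there came mostly from the highest single marker, so these values cannot be compared directly with those of astrocyte-like nuclei. Hif3a had 1.62 and 0.637 UMIs per 100 in other GABAergic nuclei, below the 2.92 of US+ astrocyte-like nuclei. The part of glial RNA in the neuronal values of Hif3a, and in the striatal-type values of Fam107a, was not tested. For Zbtb16 the figures in other GABAergic nuclei were 51.0 and 15.8 UMIs per 100, above the 5.12 and 0.283 of astrocyte-like nuclei in both libraries. Without the nuclei that had any UMI of Aqp4, Gja1, Mog, Mag, Cx3cr1, Cldn5 or Flt1, the Hif3a ratio was 1.62 in other GABAergic and 1.07 in glutamatergic nuclei.

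To give shares of nuclei at 1 depth, each nucleus was thinned at random to 2000 UMIs and shallower nuclei were left out. Zbtb16 was then found in 4.94% of US+ striatal-type nuclei (29 of 587; exact binomial interval 3.33 to 7.02%) and in 0.843% of US- (17 of 2017; 0.492 to 1.35%). In other GABAergic nuclei the shares were 10.4% in US+ and 2.80% in US-, and in glutamatergic nuclei 10.7% and 2.59%. In astrocyte-like nuclei 31 of 75 US+ nuclei had Zbtb16, 41.3% (30.1 to 53.3%), against 2 of 54 US- nuclei, 3.70% (0.452 to 12.7%). Positive nuclei held on average 1.03 to 1.32 UMIs in US+ and 1.0 to 1.1 in US-, values that lie near 1 wherever few nuclei have a UMI, so that more nuclei with the RNA and more RNA per nucleus cannot be told apart here. Unthinned, 22.1% of US+ and 6.03% of US- striatal-type nuclei had Zbtb16, and no single nucleus held over 5.23% of the UMIs of a neuronal class.

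Sgk1 was found in 17.7% of thinned striatal-type nuclei in US+ (14.7 to 21.1%) and in 30.8% in US- (28.8 to 32.9%), and unthinned in 56.4% and 69.4%. Positive nuclei held 1.09 UMIs in US+ and 1.29 in US- on average. Fkbp5 was found in 9.47% of other GABAergic nuclei in US+ and 5.49% in US-, but in striatal-type nuclei in 11.1% (8.65 to 13.9%) and 9.27% (8.04 to 10.6%), intervals that overlapped. Nr3c1 was found in 9.37% of striatal-type nuclei in US+ and 12.9% in US-, and in 13.4% and 11.6% of other GABAergic nuclei. No class can be taken to lack these widely expressed genes, so no share measuring free RNA alone was at hand. The shallow nuclei with under 1000 UMIs had 62.9 CPM of Zbtb16 in US+ (55 UMIs) and 11.9 CPM in US- (3 UMIs), and 67.4 and 115 CPM of Sgk1, and the part of free RNA in the shares was not tested.

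**Figure D3:**
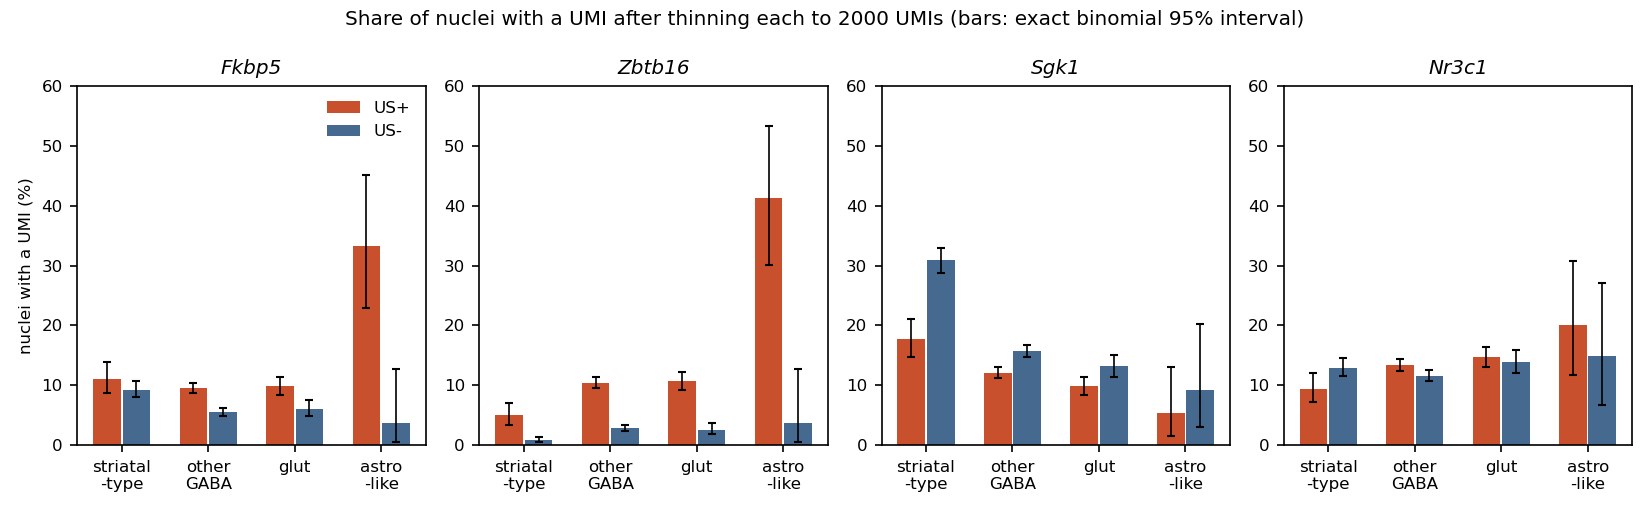
Share of nuclei (%) with at least 1 UMI of Fkbp5, Zbtb16, Sgk1 and Nr3c1 after thinning to 2000 UMIs, US+ left of US-, in 4 classes with exact binomial 95% intervals. Zbtb16 reached 41.3% of US+ astrocyte-like nuclei and 3.70% of US- ones. The US+ share was the lower one for Sgk1 in the neuronal classes and for Nr3c1 in striatal-type nuclei. In astrocyte-like nuclei the Sgk1 shares rest on 4 US+ and 5 US- nuclei, with overlapping intervals.

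Gates on further markers gave 12 finer types with at least 50 nuclei in each library. Zbtb16 was higher in US+ in 12 of 12, with every interval above 1. Its ratio was 7.74 (5.46 to 11.1) in D1-type nuclei, with Drd1 and no Drd2, where it was at 30.3 CPM in US+ against 3.91 CPM in US-. In D2-type nuclei, with Drd2 and no Drd1, it was at 34.7 CPM in US+ against 13 CPM in US-, a ratio of 2.66 (2.02 to 3.51). The US+ levels of these types lay close together, and the difference in ratio came with the US- level. The smallest ratio was 2.35 (2.08 to 2.66) in Lhx6 GABAergic nuclei, which had the highest US- level, 29.1 CPM. The largest was 15.2 (5.76 to 56.7) in aromatase (Cyp19a1) GABAergic nuclei, on 108 UMIs in US+ and 4 in US-, and Adcyap1 glutamatergic nuclei had 7.66 (4.17 to 15.7). Over the 12 types the Zbtb16 level ran from 30.3 to 73.1 CPM in US+ and from 3.91 to 29.1 CPM in US-.

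Fkbp5 had a ratio above 1 in 11 of 12 types, with 9 intervals above 1, from 0.974 (0.648 to 1.50) in suprachiasmatic-type nuclei to 2.02 (1.73 to 2.36) in Esr1 GABAergic nuclei. Galanin GABAergic nuclei had 50.8 CPM in US+ against 47.1 CPM in US- of Fkbp5, a ratio of 1.08 (0.808 to 1.45), beside a Zbtb16 ratio of 3.81 (2.55 to 5.92) in the same nuclei. Sgk1 had an interval below 1 in 5 types and above 1 in none. Its ratio was 0.507 in D1-type, 0.521 in D2-type, 0.653 in Tshz1 Foxp2 GABAergic and 0.491 (0.371 to 0.650) in aromatase GABAergic nuclei, and 1.28 (0.962 to 1.68) in cholinergic nuclei. Esr1 GABAergic nuclei had 61.3 CPM in US+ against 62.2 CPM in US- of Sgk1, a ratio of 0.985 (0.874 to 1.11). The glutamatergic types had Sgk1 ratios of 0.988 (Sim1), 1.08 (Adcyap1) and 1.04 (Esr1), each with an interval that included 1. Their sizes differed between the libraries, with 497 Sim1 nuclei in US+ and 181 in US-, and the part of this mix in the class ratio was not tested. Nr3c1 had a ratio below 1 in 8 of the 12 types and above 1 in 4, with 1 interval below 1 and 3 above. It was lower in US+ in D1-type nuclei, 0.743 (0.641 to 0.859), and higher in aromatase GABAergic nuclei, at 128 CPM in US+ against 75.9 CPM in US-, a ratio of 1.69 (1.26 to 2.28), and also in Lhx6 (1.29) and Esr1 (1.25) GABAergic nuclei. Galanin GABAergic nuclei (0.838), Tshz1 Foxp2 GABAergic nuclei (0.857) and cholinergic nuclei (0.896) had Nr3c1 ratios below 1 with intervals that included 1, and Sim1 (0.982) and Adcyap1 (0.962) glutamatergic nuclei lay close to 1. Of 16 pairs of a receptor and an induced member, the strongest correlations across the types were these. The US- level of Nr3c2 went with a lower Sgk1 ratio (Pearson r -0.78, Spearman rho -0.80) and that of Nr3c1 with a higher Zbtb16 ratio (0.56 and 0.73). Nr3c1 with Errfi1 came next (0.53 and 0.56), close to Zbtb16 by Pearson r. Other pairs were weaker, such as Nr3c1 with Fkbp5 (0.35 and 0.27) and Nr3c2 with Fkbp5 (-0.09 and 0.08). These are a description over 12 types, or 11 for Fam107a and 9 for Hif3a, that share the libraries and overlap in nuclei.

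**Figure D4:**
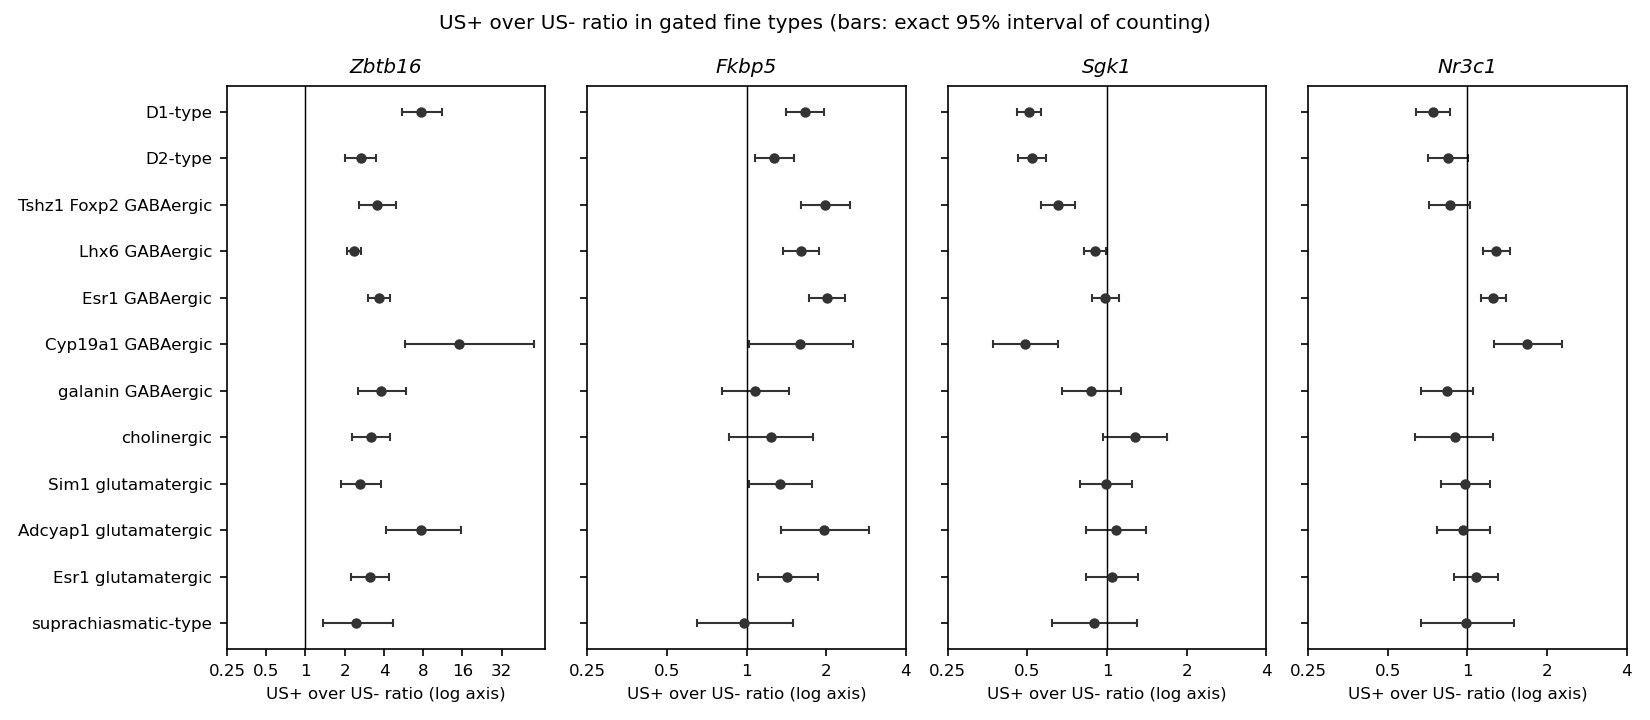
US+ over US- ratio (log axis) of Zbtb16, Fkbp5, Sgk1 and Nr3c1 in 12 gated types of neurons, with exact 95% intervals of counting. Zbtb16 lies right of 1 in all 12, from 2.35 to 15.2, whereas Sgk1 runs from 0.491 to 1.28.

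Detection in the same nuclei was compared after thinning to 5000 UMIs. In US+ other GABAergic nuclei Zbtb16 was found in 24.9% of the nuclei with an Nr3c1 UMI (22.2 to 27.8%; 238 of 954) and in 20.1% of those without (18.6 to 21.6%). Fkbp5 was found in 25.3% of nuclei with Nr3c1 (22.5 to 28.1%) and in 17.5% without (16.1 to 18.9%). In US- other GABAergic nuclei the shares were 6.96% and 7.87% for Zbtb16, and 15.3% and 11.6% for Fkbp5. Zbtb16 was thus more often seen beside GR RNA in US+ and not in US-, while Fkbp5 was so in both libraries, and the difference between the libraries was not tested. Sgk1 was found in 24.0% of US+ nuclei with Nr3c1 and in 25.7% of those without. In striatal-type US+ nuclei the intervals overlapped for Zbtb16 (14.4% with Nr3c1 and 11.3% without) and for Fkbp5 (26.4% and 21.6%). These nuclei are of several finer types, which were not separated here.

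Early genes such as Fos and Arc mark recently activated nuclei, and nuclei with and without a UMI of 6 of them were compared within each library after thinning to 2000 UMIs. Such UMIs were present in 41.2% of striatal-type nuclei in US+ and 8.53% in US-. In US+ other GABAergic nuclei, Errfi1 was at 48.1 CPM with early-gene UMIs and 23.7 CPM without, a ratio of 2.03 (1.46 to 2.77), and Sgk1 at 88.0 and 65.4 CPM, a ratio of 1.34 (1.07 to 1.68). For Sgk1 the ratio was 0.875 (0.661 to 1.14) in US- other GABAergic nuclei. It was 1.22 (0.823 to 1.79) in US+ striatal-type nuclei and 0.726 (0.535 to 0.964) in US- striatal-type nuclei. In glutamatergic nuclei the order was the reverse, 0.986 (0.551 to 1.65) in US+ and 1.54 (0.859 to 2.56) in US-. The side of 1 of Sgk1 thus differed between the libraries without a common direction over the classes, and the difference was not tested. In US+ other GABAergic nuclei Zbtb16 had 54 UMIs in 540 nuclei with and 472 UMIs in 3874 nuclei without, a level ratio of 0.821 (0.607 to 1.09). In US+ striatal-type nuclei Zbtb16 had 8 UMIs with and 22 without, a ratio of 0.518 (0.200 to 1.21). In the other GABAergic nuclei of US+, Errfi1 and Sgk1 therefore went with early genes, whereas the Zbtb16 intervals of both classes included 1. Ddit4 also went with early genes in these nuclei, with a ratio of 2.46 (1.16 to 4.85). The class holds several finer types, which were not separated in this comparison. For Errfi1 the ratio was 1.66 (0.844 to 3.31) in US+ striatal-type and 0.651 (0.206 to 1.58) in US+ glutamatergic nuclei. In US- it was 0.641 (0.272 to 1.30) in other GABAergic and 0.495 (0.0995 to 1.51) in striatal-type nuclei, so all 4 of these intervals included 1.

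Other genes known to be raised by glucocorticoids were counted from a list of 24. In striatal-type nuclei 10 of 16 measured were past the 1.5-fold limit upward and 1 downward in US+, against 6.38% and 8.88% of all genes, and the median ratio was 1.65. In other GABAergic nuclei 10 of 20 were higher, against 5.21% of all genes, and none lower (median 1.48). In glutamatergic nuclei 8 of 18 were higher, against 3.34%, and none lower (1.37), and in astrocyte-like nuclei 4 of 5 were higher, against 7.93%, and none lower (1.63). The list was chosen with results of these data known, so these counts are a description. The members that stood out in striatal-type nuclei were Arl4d, a small GTPase gene, at 17.7 CPM in US+ against 1.74 CPM in US- (ratio 10.2, 7.03 to 15), and Irs2, an insulin receptor substrate gene, at 53.0 and 15.7 CPM (3.37, 2.91 to 3.91). Lowest were Litaf, at 5.4 and 8.66 CPM (0.624, 0.432 to 0.881), and Gpd1, at 4.32 and 6.09 CPM (0.709, 0.466 to 1.05). Several of the listed genes also follow neuronal activity, and all 6 early genes were higher in these nuclei, from 3.12-fold for Egr1 to 67.1-fold for Fosb. The share of early-gene induction in the list was not tested.

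**Figure D5:**
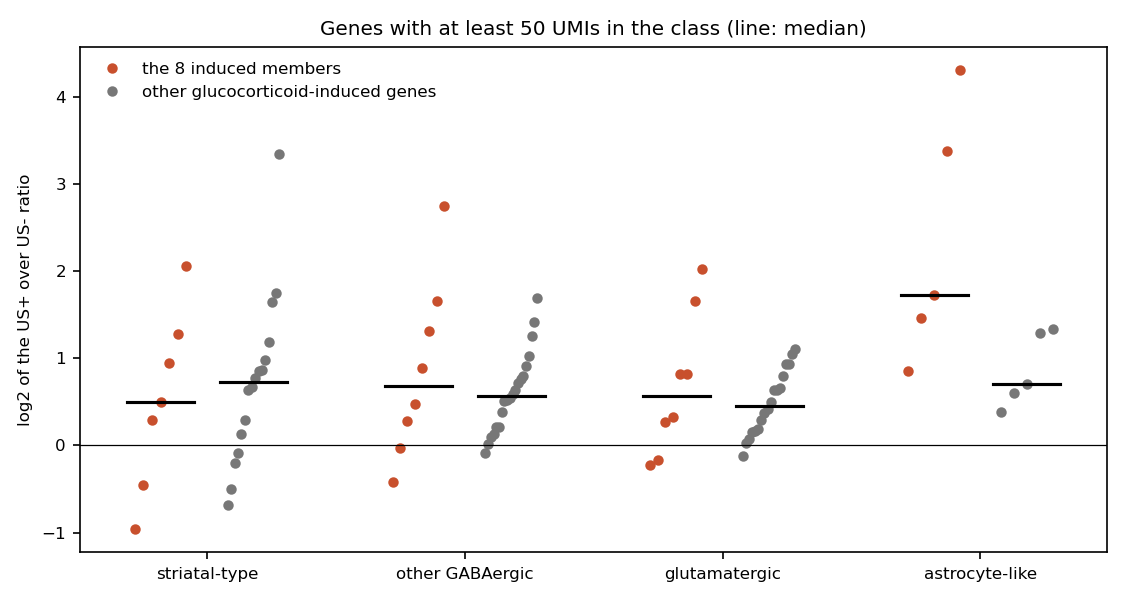
Log2 of the US+ over US- ratio of the 8 induced members and of other glucocorticoid-induced genes with at least 50 UMIs in each class, each point a gene and each line a median. Both sets lie mostly above 0 in all 4 classes, and the highest member point is Zbtb16 in astrocyte-like nuclei at 4.31 and the highest other point Arl4d in striatal-type nuclei at 3.35.

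Genes of the machinery around the receptors were counted in striatal-type nuclei, where 6.38% of all genes were past the limit upward and 8.88% downward, so that a count of 0 in a list this short lies near the share over all genes. Of 12 genes of receptor chaperones, which hold GR in its hormone-binding form, none of the 10 measured in striatal-type nuclei was past 1.5-fold (median ratio 1.04), and the highest and lowest with at least 100 UMIs were Dnajb1 at 1.35 (0.867 to 2.07) and Fkbp4, the counterpart of Fkbp5 in the receptor complex, at 0.789 (0.595 to 1.04). None of 10 coregulators was past 1.5-fold there (median 0.972), with Nrip1, a corepressor, at 1.28 (1.12 to 1.45) and Ncoa3, a coactivator, at 0.825 (0.721 to 0.941). Of 3 measured genes of steroid metabolism and transport none was past that fold, with Srd5a1, a steroid reductase, at 0.743 (0.581 to 0.943). Since Hif3a and Ddit4 also respond to low oxygen, 15 hypoxia-inducible genes were counted. In striatal-type nuclei 5 of 12 measured were higher, against 6.38% of all genes, and none lower, led by P4ha1 at 194 CPM in US+ against 51.4 CPM in US- (3.78, 3.50 to 4.10) and the glucose transporter gene Slc2a1 (2.95, 2.14 to 4.07). The counts were 1 of 13 in other GABAergic and 1 of 12 in glutamatergic nuclei, near the 5.21% and 3.34% of all genes, and the difference between classes was not tested. Of the genes of the integrated stress response, which also raises Ddit4, none of 6, 10 and 8 measured was higher in the striatal-type, other GABAergic and glutamatergic nuclei, and 0, 1 and 1 were lower, counts near the shares of all genes given above.

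In striatal-type nuclei other genes exceeded Zbtb16. The 5 highest genes with at least 1000 UMIs were Npas4 (26.0), Rgs2 (8.98), 1700016P03Rik (6.22), Mir670hg (6.03) and Gm47423 (4.85). Over the levels of classes and finer types in both libraries, 32 points that share their nuclei in part, the genes most like Zbtb16 by Pearson correlation of log2(CPM + 1) among 10060 genes were Gm11457 (0.83), Gm37679 (0.81) and Zfp788 (0.80). Their own US+ over US- ratios in the 3 neuronal classes were small, from 1.11 to 1.28, against 3.15 to 4.16 for Zbtb16. Fkbp5 came 66th (0.66), Errfi1 165th (0.61) and Nr3c1 4871st (0.10), and Sgk1 was among the most opposite (-0.69). Mitochondrially encoded genes, a sign of cytoplasmic RNA in the nuclei, had a median ratio of 0.841 in striatal-type, 1.32 in other GABAergic, 1.42 in glutamatergic and 0.680 in astrocyte-like nuclei, so that they moved with the member ratios in some classes and against them in others. Their part in the results was not tested.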

How the data were processed

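Single-nucleus 10x 3′ libraries (v3.1) of pooled POA tissue, 1 per group, were analysed. The deposited values are raw UMI counts per gene and nucleus, made by the authors with Cell Ranger 6.1.1 on mm10, with libraries brought to the read depth of the least saturated one. Whether intronic reads were counted is not given in the sources used here. Nuclei with 200 to 7500 genes and at most 5% mitochondrial UMIs were kept, and that upper bound was the only limit on doublets. Exclusive gates were applied in the order striatal-type, astrocyte-like, glutamatergic, other GABAergic. Levels are CPM, UMIs scaled to the total of each library and class. Intervals are exact 95% Poisson, binomial or conditional binomial intervals, and those of ratios of ratios use the log-scale delta method. They cover counting error only, since each group is 1 library. For 50 or more UMIs, a fold limit of 1.5 was applied. The ratio intervals and the fold limit were tested on simulated counts with counting error only, and the thinning on real nuclei. The gates, motif search, joint detection, early-gene comparison and correlations were not tested in this way.

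The members and gene lists were chosen with earlier results of these data known. Named genes were all members, from each list the 2 highest and 2 lowest in striatal-type nuclei with at least 100 UMIs, the 5 highest genes there with at least 1000 UMIs, and the 3 genes most like Zbtb16 among those with at least 2000 UMIs. Not every gene so chosen is printed. Joint detection was planned for striatal-type nuclei, and other GABAergic nuclei were added after the values were seen. A gate on microglial genes took mostly nuclei with neuronal Snap25 levels and is not reported. Alternatives covered nucleus filters, TMM and median-ratio scaling, equal weights, thinning to 2000 UMIs, gates, glial UMIs, the fold limit and the minimum of UMIs. Software was Python 3.11.15, numpy 2.4.6, scipy 1.17.1, pandas 2.3.3, matplotlib 3.10.9, R 4.3.3 and edgeR 4.0.16, which gave the TMM factors only.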

Additional observations from a re-analysis of the deposited data

Results flagged for a closer look

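The Nr3c1 ratio lay on opposite sides of 1 between classes of nuclei, which is what drew attention to it. It was 1.24 in other GABAergic and 1.1 in glutamatergic nuclei, and 0.807 in striatal-type nuclei. With 1 library per group, the difference between classes was not tested across mice, and the intervals of the ratios of ratios, 1.53 (1.36 to 1.72) for other GABAergic and 1.36 (1.19 to 1.56) for glutamatergic over striatal-type nuclei, cover counting error only.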

How the results depend on the processing

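No paired analysis was possible because each group is 1 library. Zbtb16 stayed above 1 and Sgk1 below 1 in every class under every alternative run, with ranges of 3.44 to 5.05 for Zbtb16 and 0.480 to 0.538 for Sgk1 in striatal-type nuclei. Over all members and classes, 420 alternative ratios stayed within their counting interval, 48 left it and 1 that was past 1.5-fold on at least 50 UMIs fell on the other side of 1: Hif3a in glutamatergic nuclei was 0.837 with stricter gates, on fewer nuclei. In all, 9 of 50 ratios changed side of 1 under some alternative, among them Tsc22d3 in striatal-type nuclei (0.382 after thinning, against 1.22), Errfi1 in astrocyte-like nuclei (0.686 with stricter gates, against 1.56), Nr3c1 in astrocyte-like nuclei (0.873 with equal weights, against 1.1), and Ddit4, Tsc22d3 and Nr3c2 in glutamatergic nuclei. The count of members at least 1.5-fold higher was 5 in striatal-type nuclei with no filter on nuclei, in place of 3. With a fold limit of 2 it was 3 in all nuclei, in place of 5, and 2 in glutamatergic nuclei, in place of 4. In astrocyte-like nuclei it was 0 after thinning and 0 with stricter gates, in place of 5, since only 1 member then kept 50 UMIs. Fkbp5 in striatal-type nuclei was 1.1 after thinning, against 1.41. Without the 5 nuclei richest in the member, an alternative chosen after seeing the data, the Fkbp5 ratio in astrocyte-like nuclei was 50.6, against 10.4, on few US- UMIs, and with stricter gates it was 6.00. Sgk1 there was 0.900 with stricter gates, against 0.367. Other causes were not tested. The astrocyte-like class rests on 82 and 62 nuclei that also carry neuronal RNA.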

Other observations

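The nuclei that met no gate, 4864 in US+ and 3273 in US-, also showed the differences. Zbtb16 was at 74.7 CPM in US+ against 15.2 CPM in US-, a ratio of 4.91 (4.31 to 5.62), Fkbp5 at 63.6 and 31.4 CPM, a ratio of 2.03 (1.83 to 2.24), and Sgk1 at 60.6 and 75.7 CPM, a ratio of 0.801 (0.740 to 0.866). Hif3a was at 7.56 and 1.80 CPM, a ratio of 4.20 (2.84 to 6.40). In these nuclei the 10 astrocyte markers summed to 257 CPM in US+ against 171 CPM in US-, and the part of glial nuclei in the values was not tested.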
